A study of Mus musculus with 24 samples.

Results

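The time of day at which mice ran was compared in exercised hearts, by setting the 6 hearts of mice that ran at ZT12 (ZT12-EX) against the 6 hearts of mice that ran at ZT0 (ZT0-EX). These 12 libraries were chosen by their labels from the 24 of the series, of which the other 12 are hearts of sedentary mice at the same times (ZT0-SED and ZT12-SED, 6 each). All were male wild-type C57Bl/6 mice aged 12 weeks, housed with 12 h of light per day, and zeitgeber time (ZT) is the number of hours since the lights came on. Mice were accustomed to the treadmill first and then ran once for 60 min, at a speed of 10 m/min with a 0% grade, at either time, and handling in the dark was done under red light. The sources used here do not give how long after the bout the hearts were taken. The labels name each library as a separate biological replicate. Replicates 1 to 3 of each group were sequenced on flow cell 1 and replicates 4 to 6 on flow cell 2. The measured quantity is the read count of each gene in poly-A-selected RNA from whole heart.

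ZT0 opens the rest phase of a nocturnal mouse and ZT12 its active phase. Nearly every cell of the heart carries a circadian clock in which BMAL1, paired with CLOCK or NPAS2, binds E-boxes in DNA and switches on the period (Per) and cryptochrome (Cry) genes, whose proteins then repress that same pair. In a second loop, REV-ERB repressors and ROR activators compete for ROR elements, through which they set the level of Bmal1 itself and of Nfil3. The remaining arm consists of the PAR bZIP activators DBP, TEF and HLF and the repressor NFIL3, which all bind D-boxes. Cardiac clocks are known for timing fuel use, ion channel levels and growth signalling, and a bout of running adds stress hormone, sympathetic and heat signals to that background.

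Promoter sequences of 5 clock genes described below are printed because together they show the 3 kinds of element through which this circuit acts: E-boxes in Ciart and Tef, D-boxes in Per3 and the core of the ROR element in Bmal1 and Nfil3. They come from RefSeq on the GRCm38.p6 build, run 5′ to 3′ along the gene's strand, and have the matched elements in capitals. The Ciart stretch, chr3:95882259-95882358 on the minus strand, spans bases -130 to -31 from the start site and has 3 E-boxes. The Per3 stretch, chr4:151044805-151044885 on the minus strand, spans bases -220 to -140 and has 2 D-boxes. The Tef stretch, chr15:81802513-81802582 on the plus strand, spans bases -160 to -91 and has an E-box. The Bmal1 stretch, chr7:113207526-113207555 on the plus strand, lies just after the start site, at bases 16 to 45, and has the core of a ROR element. The Nfil3 stretch, chr13:52981040-52981099 on the minus strand, spans bases -60 to -1 and has that core on the opposite strand, where AGGTCA reads TGACCT.
Ciart: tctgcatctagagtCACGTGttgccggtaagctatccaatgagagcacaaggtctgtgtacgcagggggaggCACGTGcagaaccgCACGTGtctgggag
Per3: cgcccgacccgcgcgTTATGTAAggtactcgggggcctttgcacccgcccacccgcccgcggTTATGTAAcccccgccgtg
Tef: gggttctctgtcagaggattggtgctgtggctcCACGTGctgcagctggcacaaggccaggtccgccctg
Bmal1: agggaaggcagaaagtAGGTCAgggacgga
Nfil3: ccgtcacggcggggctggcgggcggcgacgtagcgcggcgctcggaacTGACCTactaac

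Library totals ran from 10810284 to 20974196 counts in ZT12-EX and from 16487563 to 19948098 in ZT0-EX, where 3 counts corresponded to between 0.130 and 0.324 CPM (counts relative to the library total, scaled by TMM). The flow cells differed in 3 ways that touch these groups. For muscle transcripts, 14 skeletal muscle markers (Myh4, Actn3 and others) averaged 5.68 to 7.33 log2 CPM in all 3 ZT0-EX libraries of flow cell 2 and 6.05 in ZT12-EX 6. The average was 1.85 in ZT12-EX 4, 1.03 in ZT12-EX 5 and -0.23 to 0.40 in the 6 libraries of flow cell 1. Not all 14 are particular to skeletal muscle. Ckm, 1 of them, ran from 183 to 6992 CPM in the exercised libraries and was highest in ZT12-EX 4, so the average partly reflects heart transcripts. In mitochondrial content, ZT12-EX 4 stood apart from the other libraries. Mitochondrially encoded transcripts took 2.70% of its counts, against 11.4% to 22.8% in the other exercised libraries of flow cell 2 and 29.5% to 36.6% on flow cell 1, and its median correlation with the other libraries was 0.851 against 0.883 to 0.952. By base composition, gene levels fell with transcript GC content in the ZT12-EX libraries of flow cell 1 (Spearman correlation across genes of -0.72 to -0.58) more than in ZT0-EX there (-0.23 to -0.18), whereas the correlations on flow cell 2 were positive in both groups (0.44 to 0.67 and 0.59 to 0.70). These are correlations over genes of a library, which are not independent. Libraries of ZT12-EX varied more than those of ZT0-EX, with median residual SDs of 0.48 and 0.26 log2 CPM.

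**Figure D1:**
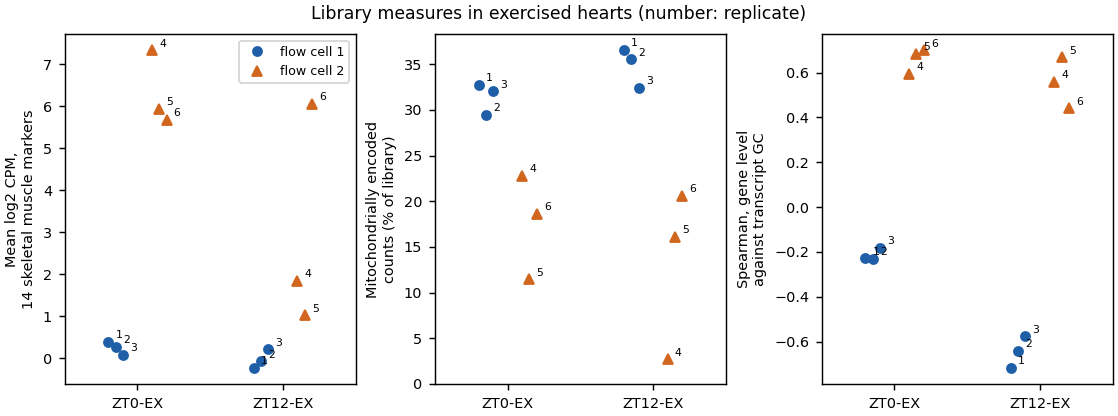
The 3 measures of the 12 exercised libraries, each point a library with its replicate number: the mean log2 CPM of 14 skeletal muscle markers, the percentage of counts from mitochondrially encoded genes, and the Spearman correlation across genes between level relative to the average library and transcript GC content. The ZT0-EX libraries of flow cell 2 and ZT12-EX 6 are high in the left panel, ZT12-EX 4 is lowest in the middle panel at 2.70%, and the flow cells separate in the right panel.

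Over all 15294 genes tested, 252 (1.65%) differed between ZT12-EX and ZT0-EX at an adjusted p below 0.05, with 124 (0.811%) higher at ZT12 and 128 (0.837%) lower. The difference exceeded 2-fold in 153 of them, 83 higher and 70 lower, and 4-fold in 24. Bmal1 had the lowest log2 fold change of all genes tested (-4.60). The clock genes Npas2, Dbp, Per3 and Per2, the transporter gene Slc41a3, the collagen gene Col5a3 and the enzyme gene Mthfd1l were among the largest differences shared by both flow cells. In 95 of the 252 genes every library of one group lay above every library of the other, a pattern found in 168 (1.1%) of all genes tested, with ZT12-EX above in 58 (0.379%) and below in 110 (0.719%). In bulk tissue, a change in the number of cells of a type and a change in the RNA per cell cannot be told apart, and this holds for each gene below. Calls in each gene list below are to be read beside the shares of 0.811% higher and 0.837% lower over all genes tested. At those shares, 0 or 1 calls in a small list are not a result about the list.

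The flow cells hold different mice, so each gives its own answer. On flow cell 1 alone (3 mice per group) 191 genes (1.25%) passed, 62 higher and 129 lower, and on flow cell 2 alone 17 (0.111%) passed, 9 higher and 8 lower. Of the 191 genes called on flow cell 1, 166 (86.9%) had the same sign on flow cell 2, against 49.3% of all genes tested, and all 17 called on flow cell 2 had the same sign on flow cell 1. The 14 genes called on both flow cells separately make up 7.33% of the first list and 82.4% of the second. They are Bmal1, Npas2, Nfil3, Dbp, Tef, Per3 and Ciart of the clock, and Mthfd1l, Leo1, Slc41a3, Col5a3, Colq, Il33 and Rcan1. All 252 genes called from both flow cells together had the same sign on each, which the joint call favours, and 36 of them had an unadjusted p below 0.05 for a difference between the flow cells. No gene passed in the test of that difference over all genes (smallest adjusted p = 0.297, 2067 genes at an unadjusted p below 0.05). Across all genes, the differences on the flow cells had a Spearman correlation of 0.05, and that of the difference with transcript GC content was -0.66 and 0.18 on flow cells 1 and 2, given as descriptions over genes whose values share libraries. Median transcript GC content was 47.5% in the genes higher at ZT12, 54.4% in those lower and 49.6% in all genes tested. With GC content fitted in each library, 403 genes (2.64%) passed, 232 higher and 171 lower. They included 220 of the 252, and all 252 kept their sign. This fit and the next reuse libraries on which the 252 were called, which favours the same sign. Without the 6 libraries of the series that carried skeletal muscle transcripts, which leaves 5 ZT12-EX libraries against the 3 ZT0-EX libraries of flow cell 1, 87 genes (0.569%) passed, 27 higher and 60 lower, 79 of the 252 among them, and all 252 kept their sign. None of the 252 was a skeletal muscle marker, but with 1.65% of all genes called that is not a result about the 14 markers. Of the 68 called genes given with values here and in the closing observations, 41 passed there, and these did not: Aldh3a1, Il33, Zbtb16, Nppb, Cry2, Fkbp5, Wee1, Hif3a, Vegfd, Apln, Aplnr, Egln3, Tnfrsf12a, Col3a1, Serpinh1, Hyou1, Pdia6, Cx3cl1, Pfkp, Cd3g, Fam107a, Inmt, Cyp2e1, Adra1d, Vcam1, Nox4 and Lepr. That fit compares 8 of the 12 mice.

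Single libraries also moved the count. It was 451 without ZT12-EX 4, 268 higher and 183 lower, with 241 of the 252 among them, and 381 without ZT12-EX 6, whereas it was 137 without ZT12-EX 1, 154 without ZT12-EX 3, 159 without ZT0-EX 2, 162 without ZT0-EX 5 and 165 without ZT0-EX 3. Without each of the 12 exercised libraries in turn, 118 of the 252 genes passed every time. The 12 exercised libraries fitted alone gave 179 genes (1.22%), 78 higher and 101 lower. The near balance of higher and lower genes among the 252 was not kept in all of these fits, some of which gave more higher genes and others more lower ones.

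**Figure D2:**
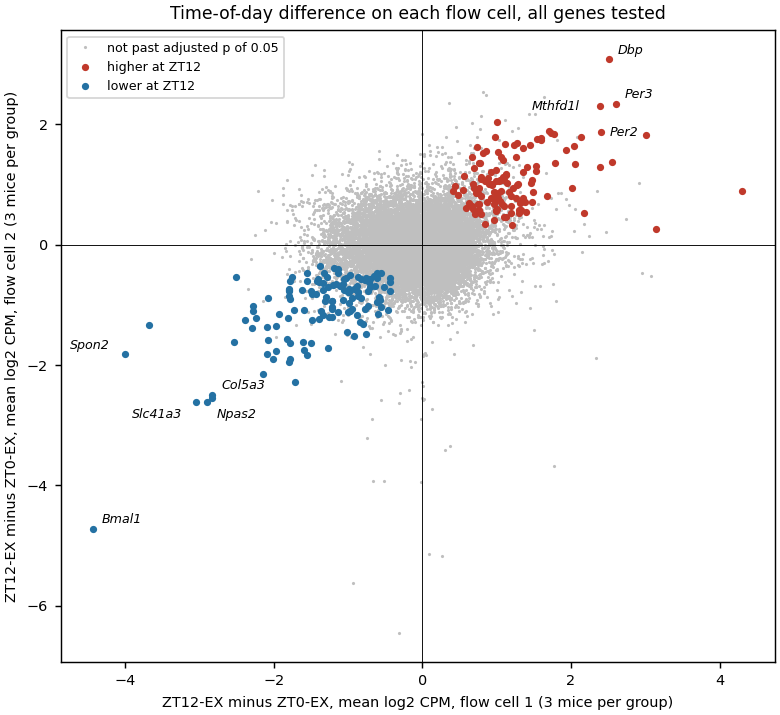
Each point is a gene of the 15294 tested, placed by its ZT12-EX minus ZT0-EX difference of mean log2 CPM on flow cell 1 (horizontal) and on flow cell 2 (vertical), with 3 mice per group on each; red and blue mark the 124 genes higher and the 128 lower at ZT12. The called genes lie in the quadrants where both flow cells have the same sign, while the gray cloud of other genes shows little relation between them, with a Spearman correlation over all genes of 0.05; the gray points far below 0 on the vertical axis include Myh4, a skeletal muscle gene.

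Among the activators of the clock, Bmal1 and Npas2 were lower at ZT12. Bmal1 (ENSMUSG00000055116) ran from 22.2 to 28.2 CPM with a median of 26.1 in ZT0-EX and from 0.324 to 1.51 with a median of 1.06 in ZT12-EX. The groups were far apart, and the lowest value, in ZT12-EX 4, equals 3 counts. The log2 fold change was -4.60 ± 0.27 (SE, n = 6 per group, adjusted p = 5.98e-11), with -4.43 and -4.72 on flow cells 1 and 2. Npas2, the partner that can stand in for CLOCK, ran from 5.60 to 7.49 CPM (median 6.51) in ZT0-EX and from 0.534 to 1.27 (median 0.857) in ZT12-EX, again without overlap (log2 fold change -2.87 ± 0.19, adjusted p = 7.22e-10). Clock ran from 35.7 to 71.1 CPM (median 51.0) in ZT0-EX and from 7.35 to 40.0 (median 32.5) in ZT12-EX and did not pass (-0.94 ± 0.26, adjusted p = 0.0676). Its groups overlapped across flow cells, although within each flow cell all 3 ZT12-EX libraries were below all 3 of ZT0-EX, and it passed once GC content was fitted (adjusted p = 0.00069).

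Of the 6 period and cryptochrome genes, which feed back on the activators, 4 were higher at ZT12 and 0 lower, against 0.811% and 0.837% of all genes tested. Per3 ran from 5.92 to 8.58 CPM (median 7.45) in ZT0-EX and from 24.7 to 56.0 (median 42.9) in ZT12-EX, and its groups did not overlap. Its log2 fold change was 2.53 ± 0.20 (adjusted p = 2.50e-08). Per2 ran from 6.97 to 12.5 CPM (median 11.2) in ZT0-EX and from 22.2 to 75.1 (median 49.0) in ZT12-EX (2.21 ± 0.23, adjusted p = 1.25e-06). The groups of Per2 did not overlap either, and ZT12-EX 4 was the lowest ZT12 library for both genes. Ciart, a repressor of the BMAL1 and CLOCK pair whose promoter is printed above with 3 E-boxes, ran from 1.48 to 2.68 CPM (median 2.33) in ZT0-EX and from 6.88 to 10.3 (median 8.97) in ZT12-EX (2.01 ± 0.20, adjusted p = 7.59e-07). Its rise was 2.14 and 1.78 on flow cells 1 and 2. Cry2 ran from 11.6 to 17.3 CPM (median 14.6) in ZT0-EX and from 15.0 to 38.9 (median 25.6) in ZT12-EX and rose by 0.87 ± 0.19 (adjusted p = 0.0156). Its groups overlapped only through ZT12-EX 1, at 15.0 CPM. Cry1, at medians of 10.7 and 13.5 CPM, did not pass (0.31 ± 0.16, adjusted p = 0.368).

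Per1 was the exception among the period genes. It ran from 27.2 to 52.2 CPM (median 39.4) in ZT0-EX and from 14.9 to 82.9 (median 43.9) in ZT12-EX. The groups overlapped, and the flow cells went opposite ways: on flow cell 1 the ZT12-EX libraries held 14.9, 26.0 and 29.9 CPM against 27.2, 34.3 and 30.1 in ZT0-EX, and on flow cell 2 they held 61.0, 57.9 and 82.9 against 49.4, 52.2 and 44.5. The log2 fold change was -0.01 ± 0.35 (adjusted p = 0.993), with differences of -0.42 and 0.45 on flow cells 1 and 2. Per1 is a direct target of the glucocorticoid receptor and of CREB as well as of the clock, and its promoter holds both an E-box and the ROR element core within the window searched.

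Of the 4 genes of PAR bZIP factors and NFIL3, the rival regulators of D-boxes, 3 were higher at ZT12 and 1 was lower. Dbp, the strongest PAR bZIP output gene, ran from 5.36 to 11.4 CPM (median 7.94) in ZT0-EX and from 31.8 to 146 (median 49.6) in ZT12-EX. The groups did not overlap, and the highest value came from ZT12-EX 4, the library that was the lowest of its group for Bmal1, Clock, Per2, Per3, Hlf and Nr1d2. Dbp rose by 2.84 ± 0.29 (adjusted p = 1.05e-06). Tef ran from 58.4 to 70.9 CPM (median 61.3) in ZT0-EX and from 157 to 237 (median 203) in ZT12-EX, with no overlap (1.66 ± 0.15, adjusted p = 1.11e-07). Hlf ran from 9.31 to 15.6 CPM (median 12.2) in ZT0-EX and from 14.7 to 60.4 (median 42.1) in ZT12-EX, where ZT12-EX 4 alone fell within the ZT0-EX range (1.64 ± 0.20, adjusted p = 1.48e-05). Nfil3, the repressor, went the other way. It ran from 17.7 to 31.9 CPM (median 25.1) in ZT0-EX and from 4.69 to 11.1 (median 7.88) in ZT12-EX, without overlap, and its log2 fold change was -1.71 ± 0.22 (adjusted p = 3.28e-05).

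Of the 5 REV-ERB, ROR and DEC genes described, 2 were higher at ZT12 and 0 lower. Nr1d2, which encodes REV-ERBβ, ran from 35.4 to 64.4 CPM (median 52.8) in ZT0-EX and from 42.4 to 285 (median 173) in ZT12-EX. All ZT12-EX libraries but ZT12-EX 4 were above the ZT0-EX range, and the log2 fold change was 1.54 ± 0.28 (adjusted p = 0.00305), with differences of 2.01 and 0.94 on flow cells 1 and 2. Bhlhe41, the DEC2 repressor of E-boxes, ran from 5.72 to 11.0 CPM (median 8.46) in ZT0-EX and from 9.95 to 17.3 (median 14.2) in ZT12-EX (0.78 ± 0.18, adjusted p = 0.0249). Its difference was 1.20 and 0.33 on flow cells 1 and 2, and it lost the call when any 1 of 5 libraries was left out (highest adjusted p = 0.0967). Nr1d1, which encodes REV-ERBα, did not pass (-0.15 ± 0.30, adjusted p = 0.877), with medians of 18.3 CPM in ZT0-EX and 19.2 in ZT12-EX and differences of opposite sign on the flow cells (-0.45 and 0.17). The ROR activator gene Rora (0.45 ± 0.22, adjusted p = 0.357) and the DEC1 gene Bhlhe40 (0.10 ± 0.23, adjusted p = 0.886) did not pass. None of 6 tested kinase and ubiquitin enzyme genes that act on clock proteins passed, the one with the smallest p being Usp2 (adjusted p = 0.143). With 1.65% of all genes tested passing, that is not a result about these genes.

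**Figure D3:**
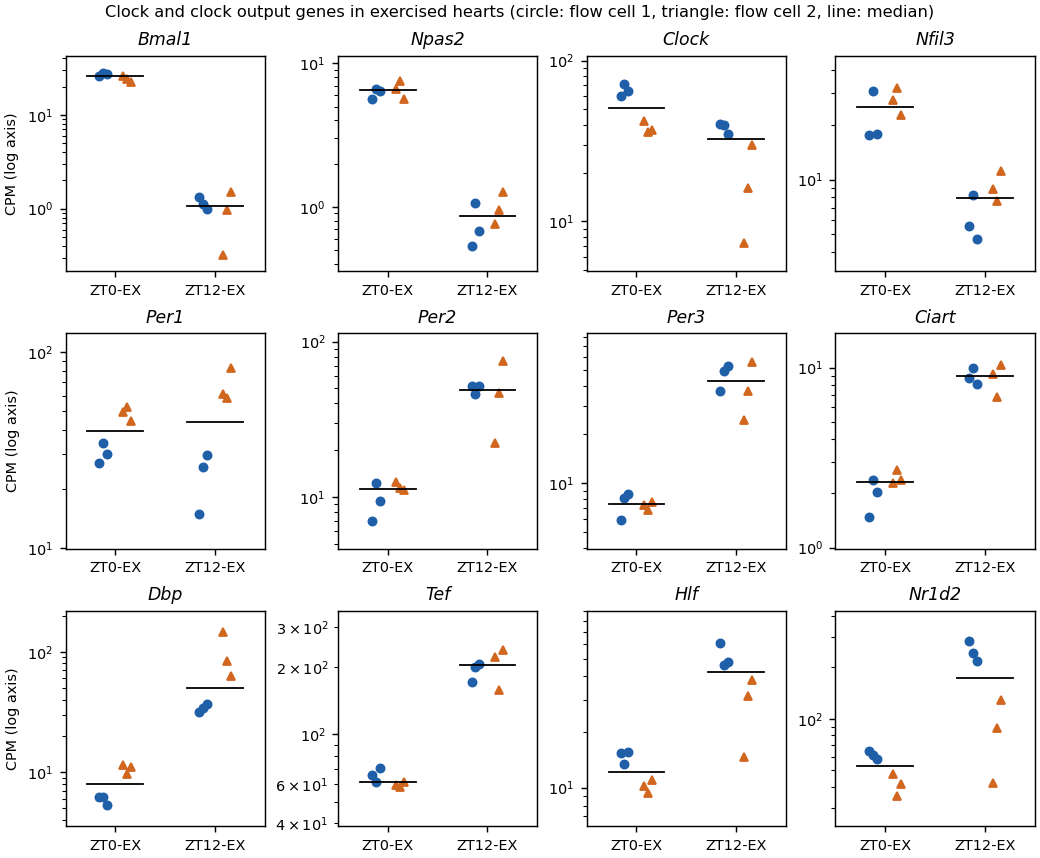
Levels of 12 clock and clock output genes in the 6 ZT0-EX and 6 ZT12-EX libraries, in CPM on a log axis that differs between panels; circles are flow cell 1, triangles flow cell 2, and the line is the median of the group. Bmal1, Npas2 and Nfil3 are lower at ZT12 and Per2, Per3, Ciart, Dbp and Tef higher with no overlap; Per1 overlaps, with opposite order on the flow cells.

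The motif search covered 250 bases before to 50 after each RefSeq start site, on both strands, for the E-box CACGTG, the D-box TTATGTAA or TTACGTAA, and the ROR element core AGGTCA. No match of one motif overlapped a match of another in the promoters of the clock genes and of the other genes described. Among 16 of the 18 clock list genes with a promoter in the table, an E-box was present in 5 (Bhlhe41, Ciart, Cry1, Per1 and Tef), the ROR element core in 5 (Bmal1, Clock, Nfil3, Nr1d2 and Per1) and a D-box in Per3. Over all 27025 genes of that table, likewise counted by gene, 8.09% held the E-box, 1.23% the D-box and 18.1% the ROR element core. Of the genes higher at ZT12 that had a promoter, 18 of 97 (18.6%) held an E-box, as did 8 of 89 lower genes (8.99%) and 11.5% of the 10972 genes tested with one. The ROR element core was in 12 of the 97 higher genes (12.4%), in 20 of the 89 lower genes (22.5%) and in 14.8% of the genes tested. A D-box was in 3 of the 97, in 0 of the 89 and in 0.902% of the genes tested. These matches describe letters in a window, and a promoter without a match lacks only those letters there.

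Outside the clock lists, the genes with the largest differences shared by both flow cells included an enzyme, a subunit of a transcription elongation complex and an ion transporter. Mthfd1l (ENSMUSG00000040675), the mitochondrial formate-producing enzyme of folate metabolism, ran from 0.432 to 0.884 CPM (median 0.654) in ZT0-EX and from 2.05 to 4.86 (median 4.11) in ZT12-EX. Its groups did not overlap, and it rose by 2.57 ± 0.25 (adjusted p = 7.59e-07). It was the 1 of 14 folate one-carbon genes to pass. Leo1, a subunit of the PAF1 complex that travels with RNA polymerase II, ran from 15.9 to 29.1 CPM (median 20.8) in ZT0-EX and from 5.07 to 10.6 (median 6.67) in ZT12-EX (-1.62 ± 0.15, adjusted p = 1.52e-07). Its difference was -1.60 and -1.61 on flow cells 1 and 2, with no overlap of the groups. Slc41a3, a magnesium transporter, ran from 35.2 to 56.4 CPM (median 41.1) in ZT0-EX and from 3.04 to 11.7 (median 5.30) in ZT12-EX (-2.79 ± 0.25, adjusted p = 1.46e-07). These groups did not overlap either.

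Other genes chosen by the same rule were lower or higher at ZT12. Among the lower ones, Lingo3, a leucine-rich repeat membrane protein gene, had a log2 fold change of -1.97 ± 0.26 (adjusted p = 7.44e-05) and Tmem171, a transmembrane protein gene, one of -2.01 ± 0.25 (adjusted p = 3.50e-05). Adam19, a membrane metalloprotease gene, ran from 32.9 to 50.5 CPM in ZT0-EX and from 6.70 to 20.3 in ZT12-EX, with no overlap (-1.79 ± 0.27, adjusted p = 0.000535). Colq, whose collagen tail anchors acetylcholinesterase, ran from 6.02 to 9.57 CPM in ZT0-EX and from 1.13 to 3.29 in ZT12-EX, with no overlap (-1.88 ± 0.28, adjusted p = 0.000378). Colq was named after its values were seen, because it passed under every setting tried. Higher at ZT12 were Cys1, which encodes the ciliary protein cystin (6.04 against 19.8 CPM at the median, 1.78 ± 0.26, adjusted p = 0.000334), and Il33, which encodes an alarmin cytokine of fibroblasts and endothelium. Il33 ran from 2.94 to 15.3 CPM in ZT0-EX and from 11.3 to 71.4 in ZT12-EX (1.87 ± 0.30, adjusted p = 0.000675). The groups of Il33 overlapped across flow cells but not within either of them, where the differences were 1.73 and 1.85.

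Detoxification enzymes were the function list with the most genes higher at ZT12. Of 23 tested, 6 were higher and 1 was lower, against 0.811% and 0.837% of all genes tested. Estimates were above 0 in 20, and the median log2 fold change was 0.57 against 0.02 over all genes tested. The list was drawn up with earlier results of these data known, so its counts are not independent of them. Fmo2, a flavin-containing monooxygenase, ran from 36.3 to 95.8 CPM (median 66.8) in ZT0-EX and from 71.8 to 484 (median 233) in ZT12-EX (1.92 ± 0.24, adjusted p = 2.74e-05). Its groups overlapped only across flow cells. Gsta3, a glutathione transferase, ran from 12.1 to 19.2 CPM (median 15.0) in ZT0-EX and from 25.5 to 92.3 (median 48.0) in ZT12-EX, without overlap (1.81 ± 0.26, adjusted p = 0.000266). Aldh1a1, which makes retinoic acid, ran from 25.2 to 53.8 CPM (median 40.5) in ZT0-EX and from 51.1 to 194 (median 107) in ZT12-EX (1.41 ± 0.22, adjusted p = 0.000623), where ZT12-EX 6 alone reached the ZT0-EX range. Fmo1 had a smaller difference (0.88 ± 0.14, adjusted p = 0.000983) that was 1.19 and 0.52 on flow cells 1 and 2. The other 3 genes of the list that passed were named after their values were seen: Inmt, a methyltransferase (1.20 ± 0.27, adjusted p = 0.0175), Cyp2e1, a cytochrome P450 (2.32 ± 0.55, adjusted p = 0.0252), and Alas1, the first enzyme of heme synthesis, which was lower (-0.85 ± 0.19, adjusted p = 0.0144). Inmt and Cyp2e1 each lost the call when any 1 of 5 libraries was left out (highest adjusted p = 0.0656 and 0.117), and Alas1 without ZT12-EX 1 (0.0556). The list gave 4 higher and 1 lower without the muscle-carrying libraries and 8 higher and 2 lower without ZT12-EX 4. Aldh3a1, an aldehyde dehydrogenase gene outside this list, ran from 0.687 to 1.40 CPM (median 1.14) in ZT0-EX and from 2.14 to 9.03 (median 4.09) in ZT12-EX, with no overlap (2.02 ± 0.38, adjusted p = 0.00367). Of the 13 tested antioxidant targets of NRF2, 0 passed, against 1.65% of all genes tested.

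Collagen genes and collagen-folding enzymes were the list with the most genes lower at ZT12. Of 23 tested, 0 were higher and 8 were lower, against 0.811% and 0.837% of all genes tested. The list's median was -0.40 against 0.02 over all genes tested. This list, too, was drawn up with earlier results of these data known. The basement membrane chain Col4a1 ran from 182 to 335 CPM (median 251) in ZT0-EX and from 37.6 to 201 (median 75.0) in ZT12-EX (-1.51 ± 0.26, adjusted p = 0.00198). Only ZT12-EX 6, at 201 CPM, reached into the ZT0-EX range. Col15a1, a collagen next to the basement membrane, ran from 59.0 to 66.7 CPM (median 63.6) in ZT0-EX and from 13.9 to 42.1 (median 24.6) in ZT12-EX, with no overlap (-1.34 ± 0.22, adjusted p = 0.00113). Col6a3, whose product forms beaded filaments, ran from 21.6 to 40.2 CPM in ZT0-EX and from 11.1 to 19.8 in ZT12-EX, also with no overlap (-0.90 ± 0.16, adjusted p = 0.00238). Col1a1, the main chain of collagen I, ran from 34.4 to 81.9 CPM (median 53.8) in ZT0-EX and from 9.64 to 62.4 (median 20.7) in ZT12-EX (-1.27 ± 0.23, adjusted p = 0.00279), and overlapped across flow cells but not within them. Col3a1 passed narrowly (-0.98 ± 0.26, adjusted p = 0.0473). The other 3 were Col4a2 (-1.62 ± 0.35), the collagen chaperone gene Serpinh1 (-0.74 ± 0.16) and Col5a1 (-0.93 ± 0.22), named after their values were seen. Outside this list, Col5a3, a chain of fibrillar collagen V, ran from 17.3 to 46.3 CPM (median 28.8) in ZT0-EX and from 1.33 to 8.88 (median 4.91) in ZT12-EX (-2.63 ± 0.27, adjusted p = 1.10e-06). Its groups did not overlap.

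The collagen list had a median below 0 in each of the fits below, while its size and calls varied. The list's median difference was -0.84 on flow cell 1, where the GC relation was steeper in ZT12-EX than in ZT0-EX, and -0.38 on flow cell 2. With GC content fitted, the median was -0.35, against -0.40 without that step. Of the 23, 6 passed there, all lower, against 8 without it. Serpinh1 (adjusted p = 0.19), Col3a1 (0.11) and Col5a1 (0.097) were not among the 6. Without the muscle-carrying libraries, where all ZT0-EX libraries are of flow cell 1, the median was -0.82 and 7 passed, all lower. Without ZT12-EX 4 it was -0.47 and again 8 passed, all lower. Col3a1 lost the call when any 1 of 9 libraries was left out (highest adjusted p = 0.133), Col5a1 when any 1 of 5 was left out (0.0898), Serpinh1 without ZT0-EX 2 or ZT12-EX 3 (0.0536) and Col4a2 without ZT12-EX 1 (0.0510). What part the library measures had in these differences was not tested. Summed levels of 12 fibroblast markers, which include Col1a1 and Col3a1, ran from 2362 to 4742 CPM in ZT12-EX and from 2504 to 3974 in ZT0-EX. Apart from those collagens, 0 of the other 10 fibroblast markers passed, against 1.65% of all genes tested, which is not a result about fibroblasts. The median of the 12 was 0.07.

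Elastic fibre and other matrix genes gave 3 lower and 0 higher of 20 tested, against 0.837% and 0.811% of all genes tested. Their median was -0.12. Spon2, a secreted matrix protein gene, ran from 12.8 to 26.7 CPM (median 14.8) in ZT0-EX and from 0.564 to 6.16 (median 1.85) in ZT12-EX, with no overlap. Its log2 fold change was -2.77 ± 0.46 (adjusted p = 0.00129), with differences of -4.01 and -1.82 on flow cells 1 and 2. Fbn1, which encodes the microfibril protein fibrillin-1, ran from 38.6 to 129 CPM (median 75.4) in ZT0-EX and from 16.4 to 36.7 (median 28.9) in ZT12-EX, also with no overlap (-1.36 ± 0.24, adjusted p = 0.00198). Eln, the elastin gene, had a log2 fold change of -0.91 ± 0.21 (adjusted p = 0.0200), and its groups overlapped. Eln lost the call without ZT0-EX 2, ZT12-EX 1 or ZT12-EX 2 (highest adjusted p = 0.0596).

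Genes of cardiac load and calcium signalling were lower at ZT12 where they passed. Of 17 tested cardiac stress genes, 3 were lower and 0 higher, against 0.837% and 0.811% of all genes tested, with a median of -0.54. Rcan1, both a target and an inhibitor of the phosphatase calcineurin, ran from 77.9 to 131 CPM (median 114) in ZT0-EX and from 31.1 to 58.7 (median 41.6) in ZT12-EX. The groups did not overlap, and Rcan1 fell by 1.31 on the log2 scale (-1.31 ± 0.14, adjusted p = 3.03e-06), with differences of -1.39 and -1.23 on the flow cells. Nppb, which encodes the natriuretic peptide BNP, ran from 135 to 461 CPM (median 273) in ZT0-EX and from 18.9 to 147 (median 81.4) in ZT12-EX (-1.62 ± 0.35, adjusted p = 0.0140). The groups overlapped by the ZT12-EX libraries 3 (136 CPM) and 5 (147 CPM), just above the lowest of ZT0-EX. Tnfrsf12a, the receptor of the cytokine TWEAK, had a log2 fold change of -1.05 ± 0.26 (adjusted p = 0.0325), with differences of -1.55 and -0.61 on flow cells 1 and 2, and lost the call when any 1 of 7 libraries was left out (highest adjusted p = 0.117). Without the muscle-carrying libraries the list gave 1 lower, and with the exercised libraries fitted alone likewise 1. Nppa, the gene of the atrial peptide ANP, did not pass (1.01 ± 0.67, adjusted p = 0.502) and ranged from 106 to 1440 CPM in ZT0-EX and from 119 to 3625 in ZT12-EX. Of 16 adrenergic receptor and signalling genes, 1 was lower and 0 higher, against 0.837% and 0.811% of all genes tested. The 1 lower, Adra1b, the alpha-1B receptor, ran from 11.7 to 22.0 CPM (median 18.8) in ZT0-EX and from 4.80 to 14.3 (median 7.85) in ZT12-EX (-1.18 ± 0.21, adjusted p = 0.00259).

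Glucocorticoid-responsive genes gave 2 higher and 1 lower of 22 tested, with a median of 0.03, and the 3 did not move one way. Fkbp5, a co-chaperone that restrains the glucocorticoid receptor, ran from 19.5 to 50.2 CPM (median 28.4) in ZT0-EX and from 53.5 to 95.4 (median 67.9) in ZT12-EX, with no overlap (1.19 ± 0.23, adjusted p = 0.00475). Zbtb16, a zinc finger factor gene, ran from 13.0 to 44.8 CPM (median 17.0) in ZT0-EX and from 40.3 to 134 (median 65.5) in ZT12-EX (1.79 ± 0.42, adjusted p = 0.0240), with overlapping groups. Zbtb16 lost the call when any 1 of 6 libraries was left out (highest adjusted p = 0.0715), and neither it nor Fkbp5 passed without the muscle-carrying libraries. Cdkn1a, which encodes the cell cycle inhibitor p21, ran from 58.4 to 94.9 CPM (median 72.0) in ZT0-EX and from 19.6 to 31.9 (median 24.6) in ZT12-EX. Its groups were far apart, and its log2 fold change was -1.56 ± 0.18 (adjusted p = 1.25e-05). Of 13 genes of CDK inhibitors, GADD45, TOB and BTG proteins and related factors, Cdkn1a was the 1 lower, and Wee1, a kinase that holds back entry into mitosis, was the 1 higher (1.32 ± 0.22, adjusted p = 0.00113). Fam107a, an actin-associated stress gene, ran from 10.5 to 32.9 CPM (median 15.9) in ZT0-EX and from 26.2 to 62.4 (median 36.7) in ZT12-EX (1.12 ± 0.24, adjusted p = 0.0139), and did not pass without ZT0-EX 2 or ZT12-EX 3 (highest adjusted p = 0.0563).

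Hypoxia and angiogenic genes split, with 2 higher and 3 lower of 18 tested and a median of -0.25. Hif3a, a member of the HIF family that restrains hypoxia signalling, ran from 0.518 to 2.81 CPM (median 1.68) in ZT0-EX and from 2.87 to 7.07 (median 4.37) in ZT12-EX, with no overlap (1.49 ± 0.33, adjusted p = 0.0156). Vegfd, a growth factor gene for lymphatic and blood vessels, was also higher (0.88 ± 0.20, adjusted p = 0.0231). Apln, which encodes the peptide apelin, ran from 9.05 to 14.7 CPM (median 10.9) in ZT0-EX and from 2.70 to 7.45 (median 5.87) in ZT12-EX, with no overlap (-0.98 ± 0.20, adjusted p = 0.0103). Its receptor gene Aplnr, named after its values were seen, ran from 13.1 to 18.8 CPM in ZT0-EX and from 3.95 to 9.60 in ZT12-EX, likewise apart (-1.05 ± 0.26, adjusted p = 0.0392). Egln3, an oxygen-sensing prolyl hydroxylase, was lower as well (-0.75 ± 0.17, adjusted p = 0.0174). None of the 5 passed without the muscle-carrying libraries, Vegfd lost the call when any 1 of 5 libraries was left out (highest adjusted p = 0.0845) and Aplnr when any 1 of 8 was left out (0.121), and Hif3a (0.0577) and Egln3 (0.0524) lost it without ZT12-EX 3. Vegfa just missed the threshold (-1.10 ± 0.29, adjusted p = 0.0502), at medians of 267 CPM in ZT0-EX and 105 in ZT12-EX with overlapping groups.

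The next lists cover the acute response to running, protein folding and cytokines. Among all genes tested, 0.811% were higher and 0.837% lower at ZT12, so 0 or 1 calls in a list of this size are not a result about the list. Of 30 immediate early genes, 1 was higher and 0 lower, with a median of -0.23: Ier3, a survival gene, ran from 8.24 to 18.0 CPM in ZT0-EX and from 16.6 to 30.5 in ZT12-EX (0.92 ± 0.15, adjusted p = 0.00069). Fos (-0.77 ± 0.37, adjusted p = 0.347), Nr4a1 (-0.36 ± 0.37, adjusted p = 0.701) and Nr4a3 (-0.20 ± 0.28, adjusted p = 0.793) did not pass. Of 24 heat shock genes 0 passed, with a median of -0.28. The near-identical pair Hspa1a and Hspa1b, whose reads can be exchanged, ran from 5.10 to 132 and from 6.66 to 184 CPM in ZT0-EX and from 9.06 to 54.2 and from 11.4 to 69.9 in ZT12-EX. In both genes the 3 highest exercised libraries were those of ZT0-EX on flow cell 2, which also carried skeletal muscle transcripts, whose part in these levels was not tested. The estimates, -0.55 ± 0.45 (adjusted p = 0.606) and -0.60 ± 0.56 (adjusted p = 0.660), had opposite signs on the flow cells. Of 20 endoplasmic reticulum folding factors, 2 were lower and 0 higher, Hyou1 (-1.02 ± 0.23, adjusted p = 0.0162) and Pdia6 (-0.58 ± 0.15, adjusted p = 0.0408), which act in protein folding in the secretory pathway. Of 22 chemokine and cytokine genes, Il33 was the 1 higher and Cx3cl1, the ligand of CX3CR1, the 1 lower (-0.99 ± 0.26, adjusted p = 0.0497). Pdia6 lost the call when any 1 of 10 libraries was left out (highest adjusted p = 0.0978), Cx3cl1 when any 1 of 11 was left out (0.141) and Hyou1 without ZT12-EX 1 (0.0556).

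Fuel and contraction genes mostly did not pass, but only 1.65% of all genes tested did. Lists of this size without a call are therefore not shown to differ from genes at large. Of 20 glycolytic enzymes, Pfkp, a phosphofructokinase, was the 1 lower (-0.54 ± 0.13, adjusted p = 0.0385), with a list median of -0.41. It lost the call when any 1 of 6 libraries was left out (highest adjusted p = 0.130). None passed among 26 fatty acid and PPAR target genes (median -0.17), 17 of triglyceride metabolism (-0.30), 19 of glucose transport and insulin signalling (-0.25), 17 of branched-chain amino acid catabolism (-0.09), 21 of cholesterol metabolism (-0.17), 39 nuclear-encoded respiratory chain subunits (0.05), 13 mitochondrial genome transcripts (-0.22), 10 PGC-1 coactivators and partners (-0.25) and 17 mitochondrial carriers (-0.11). Pdk4, the kinase that limits pyruvate oxidation, was at -0.37 ± 0.31 (adjusted p = 0.613) and Ppargc1a at 0.14 ± 0.29 (adjusted p = 0.874). None passed either among 22 potassium channel genes (-0.26), 20 of excitation-contraction coupling (-0.31), 17 sarcomere genes (-0.13), 15 atrogenes and autophagy genes (-0.05), 27 proteasome subunits (0.26), 14 of the integrated stress response (-0.10), 20 proliferation genes (0.20), 8 SOCS and CISH genes (-0.11) and 13 tubulins (-0.33, with medians of -0.95 and 0.20 on flow cells 1 and 2). In Kcnip2, the subunit of the transient outward potassium channel, the groups did not overlap, with 111 to 141 CPM in ZT0-EX and 51.7 to 110 in ZT12-EX, but it did not pass (-0.44 ± 0.20, adjusted p = 0.304).

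**Figure D4:**
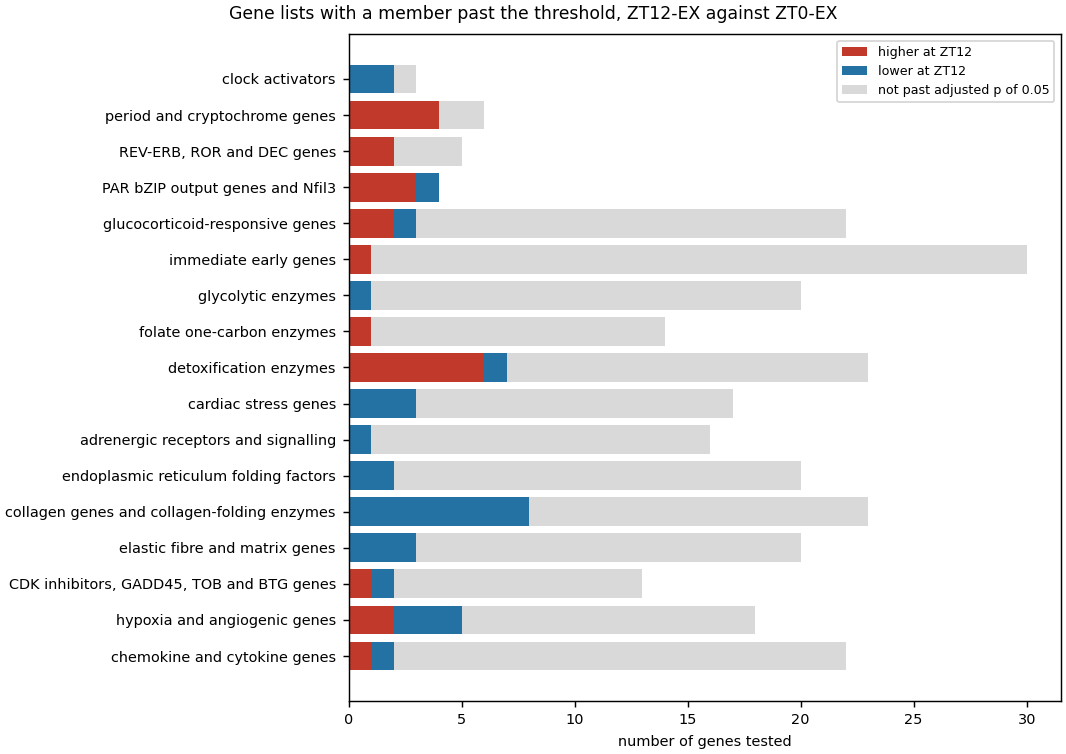
The 17 function lists with at least 1 gene past the threshold, each bar divided into the tested genes that were higher at ZT12, lower at ZT12 or not past an adjusted p of 0.05. The collagen list has 8 lower of 23, the detoxification list 6 higher and 1 lower of 23, and the 4 clock lists at the top have 2 of 3, 4 of 6, 2 of 5 and 4 of 4.

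Few cell type markers passed between the groups, as was true of all genes tested, of which 1.65% passed. All 10 cardiomyocyte markers were present in every library, summing to between 32705 and 200523 CPM in ZT12-EX, the highest being ZT12-EX 4, and to between 52059 and 79091 in ZT0-EX. None passed. Of the 14 skeletal muscle markers 0 passed, with a median of -1.37, -0.42 and -3.44 on flow cells 1 and 2. Myh4 stood at 0.104 CPM or less in the 6 libraries of flow cell 1, at 209 to 866 in ZT0-EX and at 0.757, 0.120 and 320 in ZT12-EX on flow cell 2. Of 8 atrial markers 0 passed, although 7 had estimates above 0 and the median was 1.12, with sums of 902 to 8710 CPM in ZT12-EX and 627 to 3368 in ZT0-EX. None passed among 12 endothelial (median -0.23), 14 macrophage and monocyte (0.13), 9 smooth muscle and pericyte (-0.05), 6 adipocyte (0.67), 7 blood and platelet (0.17), 7 epicardial (0.27), 5 neuronal and Schwann cell (-0.33) and 2 neutrophil markers (-0.32). Lymphocyte markers were scarce, with 8 of 12 below 1 CPM in all 12 libraries. The 1 of 8 tested that passed was Cd3g, which was at 0.312 CPM or less in ZT0-EX and at 0.397 to 1.55 in ZT12-EX, close to the level of 3 counts (1.87 ± 0.46, adjusted p = 0.0357), and it lost the call when any 1 of 9 libraries was left out (highest adjusted p = 0.165). Lung markers were too low to test, with Scgb1a1, Sftpb and Sftpd at 0 in all 12 libraries. The chemokine receptor genes Ccr2 (0.87 ± 0.24, adjusted p = 0.0691) and Cx3cr1 (-0.63 ± 0.35, adjusted p = 0.431) and the endothelial junction gene Cldn5 (-0.62 ± 0.40, adjusted p = 0.496) did not pass.

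The same hours were compared in sedentary mice, which share no library with the exercised comparison but share its fit. There, 795 genes (5.2%) passed, 376 higher (2.46%) and 419 lower (2.74%) at ZT12, and 157 genes passed in both, 60 higher and 97 lower at ZT12 in each. These 157 make up 62.3% of the exercised list and 19.7% of the sedentary list, and 249 of the 252 genes had the same sign in sedentary hearts. The sedentary libraries of flow cell 1 differed in base composition in the same direction as the exercised ones. Their correlations with transcript GC content were -0.82 to -0.76 in ZT12-SED and -0.51 to 0.24 in ZT0-SED. What part this had in the shared signs was not tested. The sedentary count, and with it the share of 19.7%, depended on the fit: 6593 genes passed on flow cell 1 alone and 35 on flow cell 2, and 3176 without the muscle-carrying libraries. Leaving out the exercised library ZT12-EX 4, which enters the shared estimate of the spread, gave 3299. The sedentary list was also not always the longer, with 323 genes against 1142 in exercised hearts with 2 surrogate variables and 1165 against 3197 by limma-voom with sample weights. When the difference between the exercised and sedentary contrasts was tested, 0 genes passed by edgeR's quasi-likelihood test (smallest adjusted p = 0.125, 1226 genes at an unadjusted p below 0.05), 0 by limma-voom and 5 by DESeq2 (Dcbld1, Fam107a, Per1, Stc1 and Tob2, all with a smaller or more negative contrast in exercised hearts). In the main fit, the 95 genes called in exercised hearts alone and the 638 called in sedentary hearts alone are therefore not shown to differ between them. By limma-voom with sample weights, 12 genes passed, Per1 and Fam107a among them, all with a more negative contrast in exercised hearts.

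Bmal1 showed nearly the same contrast in both: -4.60 ± 0.27 in exercised and -4.21 ± 0.26 in sedentary hearts, a difference of -0.39 ± 0.35 (adjusted p = 0.649). Per1 showed the widest gap among clock genes. Its sedentary medians were 4.94 CPM at ZT0 and 27.3 at ZT12, a contrast of 2.22 ± 0.38 (adjusted p = 0.00107), against 39.4 and 43.9 CPM in exercised hearts. The difference between the contrasts was -2.24 ± 0.51 and did not pass (adjusted p = 0.506), while it passed by DESeq2 (adjusted p = 0.0474) and with GC content fitted (adjusted p = 0.00151). Per2 had a sedentary contrast of 3.42 ± 0.25, a difference of -1.21 ± 0.32 from the exercised one (adjusted p = 0.571), with medians of 3.40 and 31.9 CPM in sedentary and 11.2 and 49.0 in exercised hearts. In both period genes the ZT0 median was higher in exercised than in sedentary hearts. Fam107a had medians of 3.13 and 25.2 CPM in sedentary and 15.9 and 36.7 in exercised hearts, and the difference of its contrasts was -1.98 ± 0.35 (adjusted p = 0.125). It passed by DESeq2 (adjusted p = 0.00093) and with no filter on low counts (adjusted p = 0.00441).

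The glucocorticoid-responsive list gave 11 higher and 2 lower of 22 in sedentary hearts (median 0.83), against 2 higher and 1 lower in exercised hearts (median 0.03). In the main fit (group and flow cell as terms), none of its genes passed the test of the difference. Per1, a member of the list, passed by DESeq2 and with GC content fitted, as given above, and with 2 surrogate variables (adjusted p = 0.00878). By limma-voom with sample weights, Per1 (adjusted p = 0.000413), Sgk1 (0.0429), Cebpb (0.0167) and Klf15 (0.0243) passed, all with a more negative contrast in exercised hearts. Cdkn1a had a sedentary contrast of -0.71 ± 0.18 (adjusted p = 0.0274) beside -1.56 ± 0.18 in exercised hearts, a difference of -0.84 ± 0.26 (adjusted p = 0.571). The potassium channel gene Kcna5 was at 0.87 ± 0.25 in sedentary and -0.64 ± 0.25 in exercised hearts (difference -1.51 ± 0.35, adjusted p = 0.542), and the insulin signalling adaptor Irs2 at 1.22 ± 0.39 and -0.36 ± 0.36 (difference -1.57 ± 0.52, adjusted p = 0.571). The difference of Kcna5 passed by limma-voom with sample weights (-1.25, adjusted p = 0.0167). On the other side, Aldh3a1 had a sedentary contrast of 0.14 ± 0.38, with medians of 1.41 CPM at ZT0 and 1.89 at ZT12, and a difference of 1.88 ± 0.54 from the exercised contrast (adjusted p = 0.571).

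**Figure D5:**
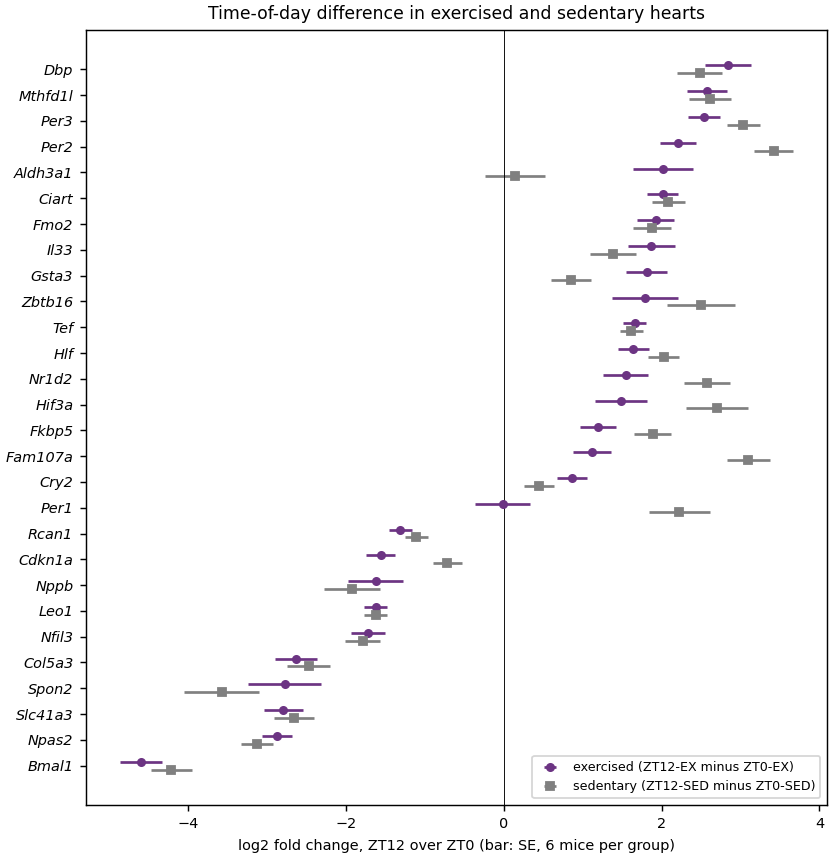
Log2 fold changes of ZT12 over ZT0 with their SE for 28 genes, in exercised hearts (circles) and in sedentary hearts (squares), 6 mice per group. Bmal1, Npas2, Leo1, Tef, Ciart and Mthfd1l nearly coincide, while Per1 (-0.01 and 2.22), Fam107a (1.12 and 3.10) and Aldh3a1 (2.02 and 0.14) lie farthest apart. None of these gaps passed the test of the difference over all genes in the main fit, while those of Per1 and Fam107a passed in some other fits.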

How the data were processed

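The deposited values are raw whole-number read counts for 52350 Ensembl genes per library, not normalized. The submitters' processing notes name Trimmomatic 0.39, HISAT2 2.2.1, featureCounts 2.0.1 and the GRCm39 build. The sources used here do not give the tool settings, annotation release or use of strand, so reads of overlapping or antisense genes cannot be told apart. Symbols were matched by Ensembl identifier to a GRCm38 annotation whose coordinates were not used, and 257 identifiers without a symbol held 0.0013% of counts. Arntl there is called Bmal1. Library totals ran from 9697334 to 23067191.

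The count test was edgeR 4.0.16 under R 4.3.3: 15294 genes kept by filterByExpr, TMM scaling and robust quasi-likelihood fits to all 24 libraries with group and flow cell as terms (19 residual degrees of freedom). Unless another tool is named, an adjusted p is that of edgeR's quasi-likelihood test, adjusted by Benjamini and Hochberg's method over all genes tested, with 0.05 as the threshold. The 4 groups share one estimate of the spread, which was larger in ZT12-EX than in ZT0-EX. Values for a single flow cell subtract the mean log2 CPM of ZT0-EX from that of ZT12-EX (prior count 2). Calls on a flow cell come from a fit to its libraries alone. The test of the difference between flow cells was added after the data were seen. On simulated counts at these depths, 53 of 100 genes changed 2-fold and 100 of 100 changed 4-fold were called, with 9 of 14895 unchanged genes. The simulation used the same spread for all genes and groups and had no flow cell, GC or muscle differences. Its rates therefore check the code and need not hold for the real libraries. Counts of the 30 library pairs within the exercised groups all differed beyond sampling noise (chi-square of at least 14.1 per degree of freedom).

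Named genes were up to 12 per direction with the largest smaller difference of both flow cells (average log2 CPM of at least 1), up to 4 per list with the smallest p, all clock list members, and a preset set (Fkbp5, Pdk4, Ppargc1a, Hspa1a, Hspa1b, Nr4a1, Nr4a3, Fos, Nppa, Nppb, Vegfa, Ccr2, Cx3cr1, Fam107a, Hif3a, Spon2, Cldn5, Mthfd1l, Kcna5, Kcnip2, Kcnh2, Irs2, Myh4 and Actn3), of which those the text treats are printed. A few results, 1 clock list member among them, are not reported here, and that list was counted without it. Predicted models were skipped. The comparison, the 52 lists and the named genes were chosen with earlier results of these data known. Alternatives were other scalings, filters, DESeq2 1.42.0, limma-voom (limma 3.58.1), surrogate variables (sva 3.50.0), GC offsets, a replicate block, subsets of libraries and each exercised library left out.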

Additional observations from a re-analysis of the deposited data

Results flagged for a closer look

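In 190 gene or library measures with 6 values in a group, the highest or lowest library was compared with the gap expected by Dixon's criterion at 95%, which chance alone passes in about 1 in 20 groups, and 9 passed. The library ZT12-EX 4 accounted for 4 of them, each the lowest of its group: Bmal1 at 0.324 CPM, the DEC1 gene Bhlhe40 at 12.9, Apln at 2.70 and Nr4a3 at 5.30. This is the library with 2.70% mitochondrially encoded counts. Without it, 451 genes passed, and Bmal1 and Apln were still called lower at ZT12. ZT12-EX 6 was the highest of its group for Myh4 at 320 CPM and for the mean of the skeletal muscle markers at 6.05 log2 CPM. Single libraries stood apart for Pdk4 (ZT0-EX 3, highest at 625.5 CPM), Nppa (ZT12-EX 2, lowest at 119) and Kcnip2 (ZT12-EX 1, lowest at 51.7). None of those 3 genes passed between the groups.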

How the results depend on the processing

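The count of 252 genes kept within 1.5 times under DESeq2 size factors, stricter or no filtering, limma-voom, omission of mitochondrially encoded genes, the exercised libraries alone and flow cell 1 alone. A similar count did not mean the same genes. Of the 252, 108 were called on flow cell 1 alone, 159 in the exercised libraries alone and 169 to 248 in the other fits just named. It was 535 by DESeq2, 403 with GC offsets, 1142 with 2 surrogate variables, 3197 by limma-voom with sample weights, 85 with library totals (35 higher, 50 lower), 62 without the flow cell term, 17 on flow cell 2 alone and 87 without the muscle-carrying libraries, the last leaving fewer samples. Leaving out 1 exercised library gave 137 to 451 genes. The cause of the other shifts was not tested. The difference from sedentary hearts gave 1 gene with 2 surrogate variables, GC offsets, GC offsets with the replicate block or no filter, 5 by DESeq2, 12 with sample weights, and 0 to 1 when a library was left out.

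Replicate numbers did not pair the groups, since same-numbered libraries had correlations of -0.53 to 0.13 in their deviations and 0 of 6 correlated best with their own number. With the replicate block, 220 genes passed for ZT12-EX against ZT0-EX, 0 for the difference from sedentary hearts, and 357 for ZT12-EX against ZT0-EX when GC offsets were added.

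No called gene given with values changed sign under any of 29 alternatives. Those fits reuse libraries on which the genes were called, which favours the same sign. Of these called genes, 13 passed under all 29: Bmal1, Npas2, Dbp, Tef, Nfil3, Per3, Ciart, Mthfd1l, Leo1, Slc41a3, Col5a3, Colq and Rcan1. Sign changes fell in genes that did not pass. Per1, at -0.01, became 0.33 with 2 surrogate variables, 0.38 with GC offsets, 0.35 with GC offsets and the replicate block, 0.055 in exercised libraries alone, 0.52 on flow cell 2 alone, 0.017 by limma-voom, 0.095 with sample weights, 0.20 without the flow cell term, and -0.14 to 0.11 when a library was left out. Nr1d1 became 0.11 with 2 surrogate variables, 0.12 with GC offsets, 0.12 with GC offsets and the replicate block and 0.21 on flow cell 2 alone. On flow cell 2 alone, Nr4a1 was 0.46, Nr4a3 0.046 and Ppargc1a -0.021. On flow cell 1 alone, Hspa1a was 0.015, Hspa1b 0.42 and Pdk4 0.28, and without the muscle-carrying libraries Hspa1a was 0.26 and Hspa1b 0.52. Ppargc1a was also -0.024 with 2 surrogate variables and -0.011 with GC offsets and the replicate block. Leaving out 1 library gave -0.10 to 0.26 for Ppargc1a, -0.57 to 0.060 for Nr4a1 and -0.37 to 0.041 for Nr4a3.

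With 3 counts at up to 0.324 CPM, lower levels could not be told from 0, and intervals from counts cover counting error only.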

Other observations

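Several called genes outside the lists were picked after their values were seen. Srf, the serum response factor that drives muscle and cytoskeletal genes, ran from 19.8 to 64.5 CPM in ZT0-EX and from 4.64 to 46.8 in ZT12-EX (-1.27 ± 0.30, adjusted p = 0.0272), with differences of -1.80 and -0.75 on flow cells 1 and 2, and lost the call when any 1 of 6 libraries was left out (highest adjusted p = 0.0973). Thra, the main thyroid hormone receptor of the heart, ran from 55.0 to 91.5 CPM in ZT0-EX and from 16.4 to 57.8 in ZT12-EX (-1.04 ± 0.23, adjusted p = 0.0166), and lost the call without ZT12-EX 1 (0.0656). Adra1d, a second alpha-1 adrenergic receptor gene, stood at 0.264 to 1.43 CPM in ZT0-EX and at 0 in 3 of 6 ZT12-EX libraries, with 0.397 as the highest (adjusted p = 0.00305), so its levels are near 3 counts and the fold is not given.

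Higher at ZT12 were the vascular adhesion gene Vcam1 (28.7 to 60.7 CPM in ZT0-EX and 32.9 to 184 in ZT12-EX, 1.20 ± 0.25, adjusted p = 0.00911) and the prostaglandin F receptor gene Ptgfr (3.62 to 9.32 and 8.76 to 52.4 CPM, 1.80 ± 0.30, adjusted p = 0.00134). The NADPH oxidase gene Nox4 (1.71 ± 0.38, adjusted p = 0.0167) had differences of 2.17 and 0.52 on flow cells 1 and 2 and lost the call without ZT0-EX 1, ZT0-EX 2 or ZT12-EX 1 (highest adjusted p = 0.0720). The leptin receptor gene Lepr (1.15 ± 0.28, adjusted p = 0.0289) lost it when any 1 of 8 libraries was left out (0.129).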
